A study of Schizosaccharomyces pombe with 8 samples.

Results

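A single array set M cells against P cells of the fission yeast Schizosaccharomyces pombe while both were responding to mating pheromone. It is 1 of the 8 arrays of the series and is defined by its label, as the hybridisation of M cells that had received P-factor for 6 h against P cells that had received M-factor for 6 h. Of 4751 named genes with a value on this array, 13 were at least 2-fold higher in M cells and 8 were at least 2-fold higher in P cells. These counts are 0.274 and 0.168 percent of the genes. M cells here were an h- strain disrupted in the adenylate cyclase gene cyr1 and inactivated in sxa2, and P cells were an h+ strain disrupted in cyr1, each a single strain. Both strains had lost silent mating-type cassettes and carried LEU2 in their place, together with cyr1::ura4+ and ura4-D18. They were grown at 30 °C in minimal medium and received chemically synthesised pheromone at 1 μg/ml. The other arrays used below are the same pair of strains untreated, and 6 arrays of each strain at 2, 4 and 6 h of pheromone over 0 h of the same strain.

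Haploid cells of fission yeast mate as 2 types. M cells secrete the lipid-modified peptide M-factor and carry the receptor for P-factor, and P cells secrete the peptide P-factor and carry the receptor for M-factor. The receptors act through the same G protein, MAP kinase cascade and transcription factor Ste11 in both types, while the mat1 locus sets which receptor, pheromone and agglutinin genes are transcribed. Ste11 is an HMG-box protein, and in M cells it acts on M-specific genes together with the mating-type protein Mat1-Mc. Loss of cyr1 lets the cells respond without nitrogen starvation, and Sxa2 is a carboxypeptidase that degrades P-factor.

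The values are log2 ratios of M over P cells, so that 1 is a 2-fold excess in M cells and -1 a 2-fold excess in P cells. RNA of M cells was labelled with Cy3 and RNA of P cells with Cy5 on this array and on the untreated one, with no dye swap, so that a dye effect of a gene and a difference between the strains cannot be told apart on either array. The values of this array were deposited without a stated base and were read as natural logs, which is likely but not settled. Read as log2 instead, every ratio shrinks by the same factor, and 9 and 7 genes pass 2-fold in place of 13 and 8. The genes then lost are SPAC11H11.03c, mok13, cwp1 and git3 for M cells and SPBC25B2.08 for P cells. The study selected SPAC11H11.03c and cwp1 by a more than 2-fold difference on this comparison. As log2 values they would lie at 0.95 and 0.80, below that threshold. The comparison had no replicate array and therefore no test, and the 2 spots of a gene share 1 hybridisation. The spotted PCR products are double-stranded, so that sense and antisense transcripts of a gene are read together.

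Best matches to the Ste11 site are shown first, because the study lists such a match for 11 of the 21 genes. The matches differ between the genes higher in M cells, those higher in P cells and those less than 2-fold apart. The rest of the 21 genes were not on the list, and whether Ste11 binds at these matches was not tested. The study's supplementary list gives the best match to a Ste11 matrix for pheromone-induced genes, and 154 genes of that list are on the array. Each sequence is printed 5' to 3' in the orientation of the full site TTTCTTTGTT, with the 10 bases of the site in capitals.

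The 7 listed genes higher in M cells had these sites.
mam2: aattCCTCTTTGTTtaga
SPAC11H11.03c: aattCCTCTTTGTTtaga
mam3: caacTTCCTTTGTTtcat
mam1: ttagTTCCTTTGTTatat
sxa2: tgggTGTCTTTGTTgccc
cwp1: tgagTCTCTTTGTTtagt
mam4: tgatTTTCTTTGTTttac

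The 4 listed genes higher in P cells had these sites.
map2: caagTTCCTTTTTTtttc
csr103: attaTTTCTGTGTTcaac
SPAC1565.03: agatTCTTTTTGTTtgaa
mug37: tgaaATTTTTTGTTaatt

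Of the listed genes less than 2-fold apart, those shown are the adaptor ste4, the MAP kinase spk1, the transcription factor ste11 and the formin fus1. Each of them has the full site, which only 30 of the 143 such genes (21%) had, so they do not represent that group.
ste4: atgcTTTCTTTGTTataa
spk1: aaacTTTCTTTGTTattg
ste11: gttgTTTCTTTGTTgcaa
fus1: taacTTTCTTTGTTcggt

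All 7 sites of genes higher in M cells held the last 7 bases of the full site, CTTTGTT, and only that of mam4 matched the whole site. None of the 4 sites of genes higher in P cells held CTTTGTT. Among the 143 listed genes less than 2-fold apart, 56 sites (39.2%) held CTTTGTT and 30 (21%) matched in full. Over all 154 genes the shares were 40.9% for CTTTGTT, which the full site contains, and 20.1% for the full site. mam2 and SPAC11H11.03c, which lie next to each other and are transcribed away from each other, were listed with the same 18 bases. Both strands of the upstream regions were searched for the list. The list was chosen by the study on RNA of these cultures, and other promoters were not analysed here, so the shares describe listed sites only. The study built its matrix from known Ste11 target genes of earlier work, and CTTTGTT did not vary in that matrix. It credits the motifs of mam2, SPAC11H11.03c and sxa2 to the same work. CTTTGTT at M-cell genes may thus be partly set by the matrix and is not separate evidence.

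The spots of a gene mostly lay close together, at large and at small ratios. Between paired spots the median difference was 0.09 on the log2 scale over 4741 genes, and 9 of 10 genes lay within 0.27. For the 21 genes past 2-fold the median difference between spots was 0.13 and the largest 0.55, and in all 21 both spots were past 2-fold on the same side. Across genes the spots correlated with r = 0.71 (4741 genes of 1 array, which are not independent), and with r = 0.48 over the narrower range of the 4720 genes less than 2-fold apart, whose spots differed by a median of 0.09. In 1713 genes the spots lay on opposite sides of 0, so the sign of a small ratio carried little information. Only 2 genes had spots more than 1 apart on the log2 scale. nrg1 had spots at 0.02 and -1.30, and tac1 had spots at 0.07 and 1.27, and neither passed 2-fold in the mean. The 4702 genes less than 1.5-fold apart made up nearly the whole array, and the SD of all ratios was 0.20, against 0.25 on the untreated array.

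**Figure D1:**
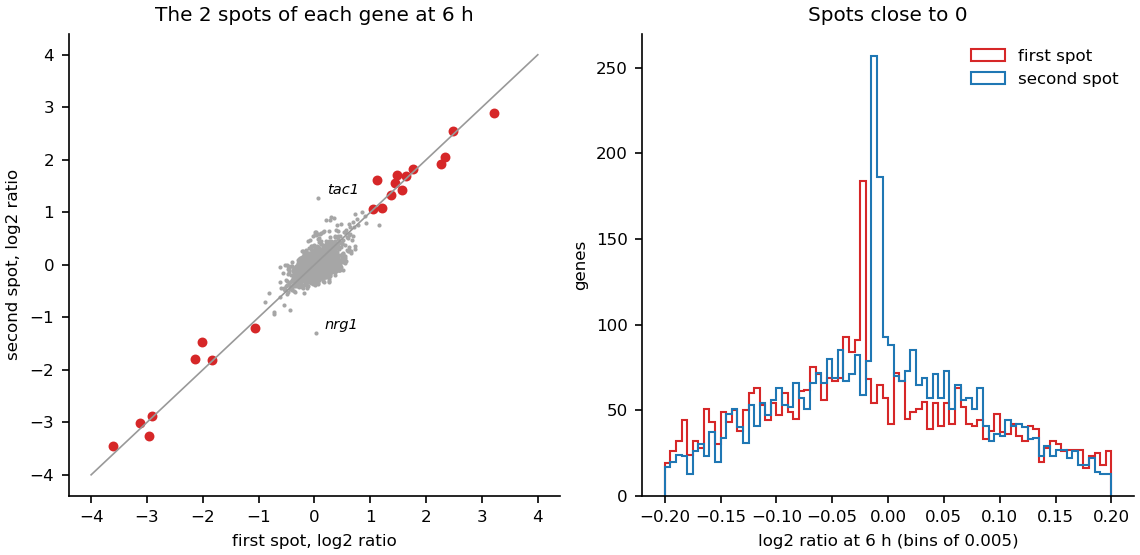
Left, log2 ratio of M over P cells at 6 h of the first spot (x axis) and the second spot (y axis) of each of 4741 genes, with the 21 genes past 2-fold in red and the line of equality in grey. Right, number of genes in bins of 0.005 for spots within 0.2 of 0; the first spots peak at -0.0225 and the second at -0.0125.

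Many genes shared 1 value close to 0. The fullest bin of 0.005 was centred on -0.0225 for the first spots and on -0.0125 for the second spots. In 191 genes (4.02%) every spot lay within 0.01 of these values, while windows of the same width moved by 0.05 up and down held 12 and 18 genes. On the untreated array the fullest bin lay at 0.0525, and 144 genes (3.03%) sat there, against 8 and 13 in the moved windows, 81 of them also at the modal value at 6 h. Abundant transcripts were frequent among these genes, with 43 of 119 cytosolic ribosomal protein genes (36.1%) and 5 of 9 core histone genes (55.6%) at the modal value at 6 h. The deposited values hold no intensities, and whether a spot at the modal value carries a measured ratio was not tested. For such genes a ratio near 0 is therefore given below as "at the modal value" and not as equality.

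The genes of M-cell mating functions led the list on the M side. All 7 of the 12 listed M-cell genes that could be named on the array were at least 2-fold higher in M cells, against 0.274 percent of all genes, with a median of 2.09. The list was written with the study's results known. It includes mam3, cwp1 and SPAC11H11.03c, which the study added by a more than 2-fold difference on this comparison, so their passing is not independent. mam2, the receptor for P-factor, had spots at 3.22 and 2.88 (mean 3.05, 8.28-fold), the highest ratio of a named gene, and its untreated spots were at 1.67 and 1.62. mam3, the agglutinin of M cells, had spots at 2.48 and 2.55 (5.71-fold) and untreated spots at 0.50 and 0.44. Both spots of both genes were thus higher after pheromone than before it.

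The carboxypeptidase gene sxa2 had spots at 2.34 and 2.05 (4.58-fold) at 6 h and at 0.21 and 0.26 untreated. This gene is inactivated in the M strain, and its spots were nevertheless higher in M cells; whether the PCR product covers the altered stretch was not tested. mam1, the ABC transporter that exports M-factor, had spots at 2.26 and 1.92 at 6 h and at 2.32 and 1.97 untreated. The means were thus 2.15 untreated and 2.09 at 6 h, or 1.45 at 6 h if that array is in log2. The time-course values of mam1, given below, were nevertheless higher in M cells than in P cells. mam4, the methyltransferase that modifies M-factor, had spots at 1.64 and 1.69 at 6 h and at 0.94 and 0.91 untreated. cwp1, the alpha subunit of a prenyltransferase, had spots at 1.21 and 1.09, and untreated spots at -0.09 and -0.02. SPAC11H11.03c, the neighbour of mam2, had the least even spots of the group at 1.13 and 1.61, and untreated spots at 0.13 and 0.20. In all of these genes except mam1 the spots of the 2 arrays did not overlap.

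Of the markers of M cells, mam1 and mam2 were thus higher in M cells, and the M-factor genes mfm1, mfm2 and mfm3 were not analysed here. The mating-type gene mat1-Mc shares its spots with the listed cassette copy mat3-Mc, and these spots were at 3.82 and 3.69 at 6 h and at 3.16 and 3.51 untreated. The markers of P cells map2 and map3 were higher in P cells, so the direction of the ratio matched the labels at these markers.

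**Figure D2:**
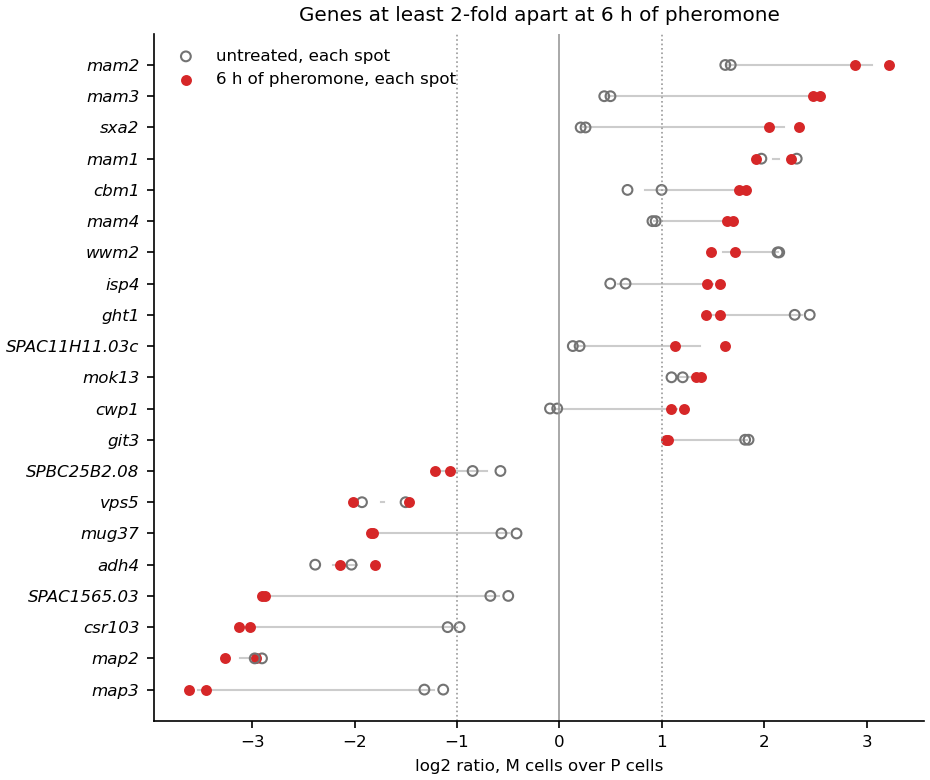
Log2 ratio of M over P cells (x axis) of each spot at 6 h of pheromone (red) and untreated (open) for the 21 genes at least 2-fold apart at 6 h (y axis), with a grey line between the means of the 2 arrays and dotted lines at 2-fold. mam3, sxa2, cwp1, map3, csr103 and SPAC1565.03 moved away from 0, while mam1, map2, adh4 and vps5 lay near their untreated values with the 6 h array read as natural logs.

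The P side was led by the receptor for M-factor. map3 had spots at -3.61 and -3.45 (mean -3.53, 11.6-fold higher in P cells), the largest difference of a named gene in either direction, and untreated spots at -1.32 and -1.13. Its time-course values, given below, stayed near 0 in both cultures, and whether these spots report map3 transcript was not tested. map2, which encodes P-factor, had spots at -2.96 and -3.27 (8.67-fold) and was at -2.90 and -2.97 untreated, so the ratio was about as large before pheromone with the array read as natural logs. SPAC1565.03, whose function the sources used here do not give, had spots at -2.91 and -2.87 (7.41-fold), against -0.67 and -0.50 untreated. Between these 2 arrays map3 and SPAC1565.03 thus moved further towards P cells, with no overlap between their spots, and map2 did not. In the time courses, given below, the mean P-factor response of map2 minus its mean M-factor response was nevertheless -2.87. Whether pheromone leaves the ratio of map2 unchanged is therefore not settled here.

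The remaining P-cell genes stayed below 2-fold. Of 8 listed P-cell genes 6 could be named on the array, and 3 of the 6 were past 2-fold, against 0.168 percent of all genes. The list was written with the study's results known, and SPAC1565.03 was added to it by the study from this comparison, so its passing is not independent. map1, a MADS-box transcription factor needed for P-specific transcription, had spots at -0.18 and -0.24. map4, the agglutinin of P cells, had spots at 0.20 and -0.09, and sxa1, a protease that degrades M-factor, had spots at 0.13 and 0.01. The study did not identify map4 on its arrays but found it P-specific by real-time PCR in cyr1+ cells. mat1-Pc, the marker set by the mating-type locus of P cells, and mat1-Pm were not analysed here.

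Genes outside the lists of mating functions made up 6 of the 13 genes higher in M cells and 5 of the 8 higher in P cells. csr103, a member of the Sec14 family of lipid transfer proteins, had spots at -3.13 and -3.02 (8.42-fold higher in P cells) and untreated spots at -1.09 and -0.97. mug37, of unknown function, had spots at -1.84 and -1.82 (3.55-fold) and was at -0.57 and -0.42 untreated. Like SPAC1565.03, both had a ratio of about 2-fold or less before pheromone and of more than 3-fold after it. SPBC25B2.08 was the P-side gene closest to the threshold, with spots at -1.07 and -1.21 and untreated spots at -0.58 and -0.85.

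adh4 and vps5 were past 2-fold before and after pheromone. The alcohol dehydrogenase gene adh4 had spots at -2.15 and -1.80 at 6 h and at -2.03 and -2.38 untreated. vps5, a sorting nexin of the retromer, had spots at -2.02 and -1.47 at 6 h and at -1.93 and -1.50 untreated, so that the first spot was the lower one on both arrays.

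On the M side, cbm1 had spots at 1.76 and 1.82 (3.46-fold) and untreated spots at 0.67 and 1.00. The oligopeptide transporter gene isp4 had spots at 1.44 and 1.56 and untreated spots at 0.65 and 0.50. Both ratios were larger after pheromone than before it. Ratios of wwm2, the hexose transporter gene ght1 and the glucose receptor gene git3 were smaller at 6 h than untreated, with means of 1.60 against 2.14 for wwm2 and of 1.05 against 1.83 for git3. The spots of ght1 were at 1.57 and 1.43 at 6 h and at 2.45 and 2.30 untreated. mok13, an alpha-glucan synthase homologue, had spots at 1.38 and 1.33 and untreated spots at 1.10 and 1.20. Genes just below the threshold included gto1 (0.96), the sphingolipid hydroxylase scs7 (0.93) and imt2 (0.91) on the M side, and SPAC977.14c (-0.81) and the flocculin pfl8 (-0.80) on the P side. The spots of gto1 were at 1.15 and 0.77 and those of scs7 at 0.86 and 1.00, so that 1 spot of each passed 2-fold.

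Neighbouring genes on the chromosome that had a named spot did not share these ratios, apart from 1 pair. The 21 genes had 42 immediate protein-coding neighbours in the annotation, of which 39 had a named spot on the array. Only mam2 and SPAC11H11.03c were both past 2-fold and next to each other. The other neighbours lay between -0.62 and 0.48. ura6, the convergent neighbour of map2, marked the low end (-0.62) and mug65, which is transcribed away from sxa2, the high end (0.48). SPAP11E10.01, whose transcript overlaps that of mam3 on the opposite strand, was at -0.47, and ste4, which overlaps SPAC1565.03 in the same way, was at 0.25. his6, which overlaps map3, had no spot with its symbol alone and was not analysed here. The study did select his6 as higher in P cells on this comparison. By strand-specific RT-PCR on RNA of P cells, it traced the P-specific signal of his6 to transcript from the map3 strand. The neighbours with a named spot thus leave out a gene for which the study reports signal from its neighbour.

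Next, it was asked which differences were already present without pheromone. On the untreated array 33 genes (0.695 percent) were at least 2-fold higher in M cells and 7 (0.147 percent) in P cells. Of these 40 genes, 31 passed with both spots and 9 with only 1, whereas all 21 genes at 6 h passed with both. Of the 33 genes, 6 were also past 2-fold at 6 h, namely mam1, mam2, wwm2, ght1, git3 and mok13, and 27 were not. Of the 7 genes, 5 were still past 2-fold at 6 h, namely map2, map3, csr103, adh4 and vps5. The genes past 2-fold only under pheromone were mam3, sxa2, mam4, cbm1, isp4, SPAC11H11.03c and cwp1 in M cells and SPAC1565.03, mug37 and SPBC25B2.08 in P cells. No gene went from one side to the other.

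The ratio moved at least 2-fold between the arrays in 25 genes, 6 of them (0.126 percent) towards M cells and 19 (0.4 percent) towards P cells. A dye effect that is alike on both arrays cancels in this difference. The moves depend on the unsettled base of the 6 h array. Read as log2, 3 genes moved towards M cells (mam3, sxa2 and SPAC977.05c) and 23 towards P cells, and mam1 (1.45), map2 (-2.16), adh4 (-1.37) and vps5 (-1.21) were all nearer to 0 at 6 h than untreated. The values that follow are from the reading as natural logs. Moves towards M cells were found for mam3 (2.04), sxa2 (1.96), mam2 (1.40), cwp1 and SPAC11H11.03c (1.21 each) and SPAC977.05c (1.03). All but SPAC977.05c are listed M-cell genes. SPAC977.05c went from -1.20 to -0.17 and thus lost a difference, where the other 5 gained one.

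The moves towards P cells held gained and lost differences. map3 (-2.31), SPAC1565.03 (-2.30), csr103 (-2.04) and mug37 (-1.34) ended past 2-fold on the P side. The hexose transporter gene ght3 moved most (-2.69), from spots at 2.76 and 2.59 untreated to spots at -0.03 and -0.01, which is the modal value. isp3 went in the same way from spots at 1.53 and 1.77 to the modal value. For these 2 genes the size of the move rests on spots whose ratio was not shown to be measured. SPBC1289.14 (from 2.78 to 0.35), SPAC4H3.08 (from 2.49 to 0.82) and SPAPB1A11.03 (from 1.76 to 0.36) were not at the modal value at 6 h. The 27 genes past 2-fold on the M side only when untreated had a median of 1.17 untreated and of 0.35 at 6 h, and 2 of the 27 were at the modal value. That the median was lower at 6 h follows from how these genes were defined. In the time courses, their median log2 ratio of treated over untreated cells was -0.93, -1.10 and -0.69 at 2, 4 and 6 h in M cells, and -0.36, -0.04 and -0.05 in P cells. These genes were picked for a high ratio in untreated M cells, which are also the reference of the M-cell courses. A fall there is therefore partly set by the selection and is not separate evidence.

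**Figure D3:**
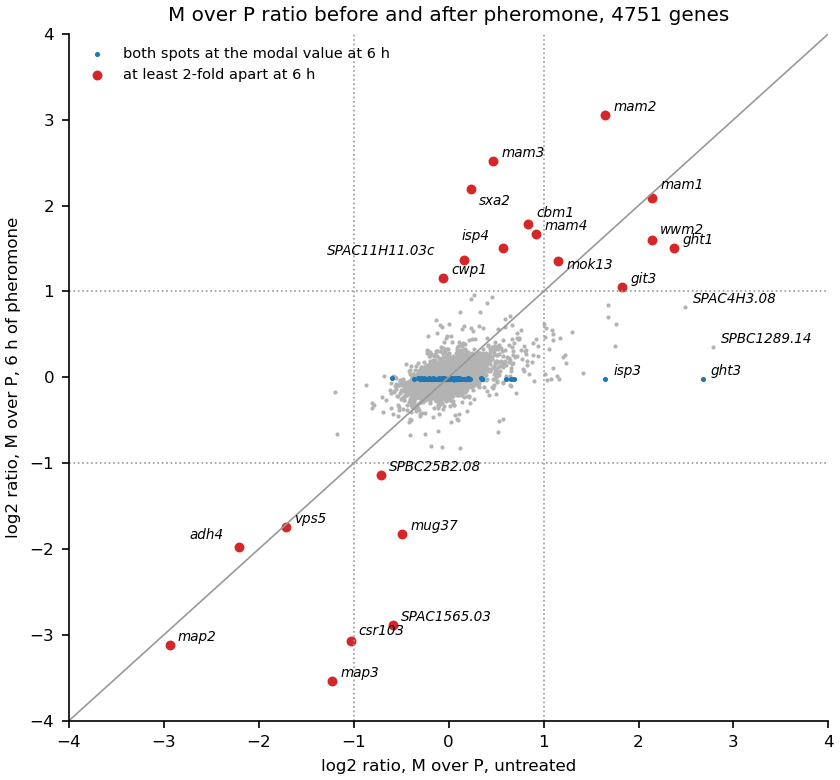
Log2 ratio of M over P cells untreated (x axis) and at 6 h of pheromone (y axis) for 4751 genes, with the line of equality, dotted lines at 2-fold, the 21 genes past 2-fold at 6 h in red and genes whose spots all sat at the modal value at 6 h in blue. Most genes far to the right of the centre, such as ght3 (2.67) and SPBC1289.14 (2.78), came down to below 2-fold at 6 h, whereas mam2, mam3, sxa2 and map3 moved away from 0.

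Genes induced by pheromone were compared between the cell types. By the rule of at least 2-fold at 2, 4 and 6 h, M-factor induced 196 of 4615 genes (4.25 percent) and P-factor 133 of 4099 (3.24 percent), in all 244 genes with either. Of these 244 genes, 232 (95.1%) were less than 2-fold apart between M and P cells at 6 h, against 99.6% of all genes. The 12 that were apart were 8 higher in M cells, all of them induced by P-factor, and 4 higher in P cells, all induced by M-factor. The sources describe 1 culture of each strain, so the 6 h RNA is taken to be the same on both kinds of array, and the induction and the ratio at 6 h are not independent. Genes induced with both pheromones numbered 85, of which 83 (97.6%) were less than 2-fold apart and 2 were higher in M cells. The induced genes had a median ratio of -0.02, and 8 in 10 of them lay between -0.20 and 0.24. At the modal value were 18 of the 244 (7.38%) at 6 h and 2 (0.82%) untreated, and 11 of the 85 (12.9%) at 6 h and 0 untreated.

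Components of the shared pathway were less than 2-fold apart, as were 99.6% of all genes, so that these counts are near the background. All 17 listed genes of pheromone signalling were on the array, and they ranged from -0.32 for gap1, a Ras GTPase activating protein, to 0.25 for ste4, with 7 of them induced. The G protein alpha subunit gpa1 had spots at -0.17 and -0.19, the MAP kinase kinase byr1 at -0.09 and 0.03 and the MAP kinase kinase kinase byr2 at 0.11 and 0.10. Both spots of spk1, of rgs1, which limits G protein signalling, and of ste6, the Ras exchange factor, were at the modal value. ste11 had spots at -0.04 and -0.01. Of the genes for cell and nuclear fusion, 10 were on the array, 7 of them induced, with ratios from -0.09 for prm1 to 0.25 for dni1. fus1 and dni2, which act in cell fusion, were at the modal value, and both were at least 2-fold up at each time point with each pheromone.

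Meiotic genes were also less than 2-fold apart, again with a background of only 0.274 and 0.168 percent past 2-fold. None of 22 recombination genes passed 2-fold, with a range from -0.24 for eme1 to 0.41 for swi5, although 14 of the 22 were induced. The 14 regulators of meiotic entry on the array lay between -0.32 for mei3 and 0.19 for atf1, and mei2, the RNA-binding protein that starts meiosis, was at the modal value. Genes of dynein, bouquet and nuclear movement (16 on the array) ran from -0.27 for dhc1 to 0.32 for bqt4, and G1/S genes (15) from -0.32 for cdc18 to 0.13 for cdc22. Heat shock genes (12), iron uptake genes (13), histidine biosynthesis genes (6) and ribosomal protein genes (119) had no member past 2-fold either. Their extremes were ssa1 (0.26), frp1 (-0.49), his7 (0.14) and rpl3002 (-0.32).

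A few lists held single genes past 2-fold. Among 23 genes of glucose, glycerol and cAMP, ght1 and git3 were higher in M cells and adh4 in P cells. Of 21 glucan synthase and glucanase genes only mok13, and of 16 nitrogen source and isp genes only isp4, passed. The agglutinin and flocculin list (9 genes) held mam3 (2.51) on the M side and pfl5 (0.60) and pfl8 (-0.80) below 2-fold. Of 6 genes for pheromone maturation and farnesylation, mam4 and cwp1 passed, both also on the list of M-cell genes. The beta subunit that pairs with cwp1, cwg2, had spots at 0.12 and 0.17. The share of members past 2-fold in these lists is to be read against 0.274 and 0.168 percent of all genes. Of the genes altered in the strains, cyr1 had spots at -0.09 and 0.02 and the marker gene ura4 at 0.64 and 0.71 (untreated 0.56 and 0.62). leu1, for which the stated genotypes give no alteration, had spots at 0.02 and -0.02.

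The time courses give the response of each culture on other hybridisations, 1 array per time point. In M cells with P-factor the log2 ratio of sxa2 over 0 h was 8.37, 9.36 and 6.27 at 2, 4 and 6 h, while in P cells with M-factor it was -0.23, 0.06 and 0.40. mam2 was at 3.51, 5.33 and 4.79 in M cells and at -0.25, 0.34 and -0.57 in P cells. mam3 was at 5.12, 7.99 and 4.72 in M cells and at 0.97, 1.79 and 2.05 in P cells. For these 3 genes every value in M cells lay above every value in P cells. cwp1 (2.12, 2.40 and 2.01 against 0.31, 0.64 and 0.10) and SPAC11H11.03c (1.76, 1.83 and 1.93 against 0.36, 0.13 and -0.04) did the same at a lower level. The values of mam1 were higher in M cells (2.79, 3.49 and 3.24 against 0.90, 0.84 and 1.33), while its M over P ratio was 2.15 untreated and 2.09 at 6 h.

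On the P side, csr103, SPAC1565.03, mug37 and map2 had higher values in P cells, and map3, adh4, vps5 and SPBC25B2.08 did not differ in this way. csr103 had log2 ratios of 5.49, 5.48 and 5.08 in P cells and of 0.74, 1.76 and 1.36 in M cells. SPAC1565.03 was at 5.47, 5.67 and 5.31 in P cells and at 0.52, 0.98 and 0.93 in M cells. mug37 (3.07, 3.16 and 3.74 against 1.53, 0.67 and 1.09) and map2 (3.1 at 2 and 4 h and 3.28 at 6 h, against -0.18, 0.92 and 0.14) were also higher in P cells at every time point. map3 had values near 0 in P cells (-0.35, -0.61 and -0.09) and in M cells (-0.31, 0.10 and -0.03). Its M over P ratio moved by -2.31 between the untreated and the 6 h array, and its spots lay 0.18 and 0.16 apart on these arrays. cbm1 likewise stayed near 0 in both courses (0.14, -0.32 and 0.11 in P cells, 0.13, -0.23 and -0.08 in M cells), while its M over P ratio moved by 0.96. mam4 had overlapping values in M cells (1.64, 1.92 and 2.33) and P cells (1.51, 1.36 and 1.73).

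**Figure D4:**
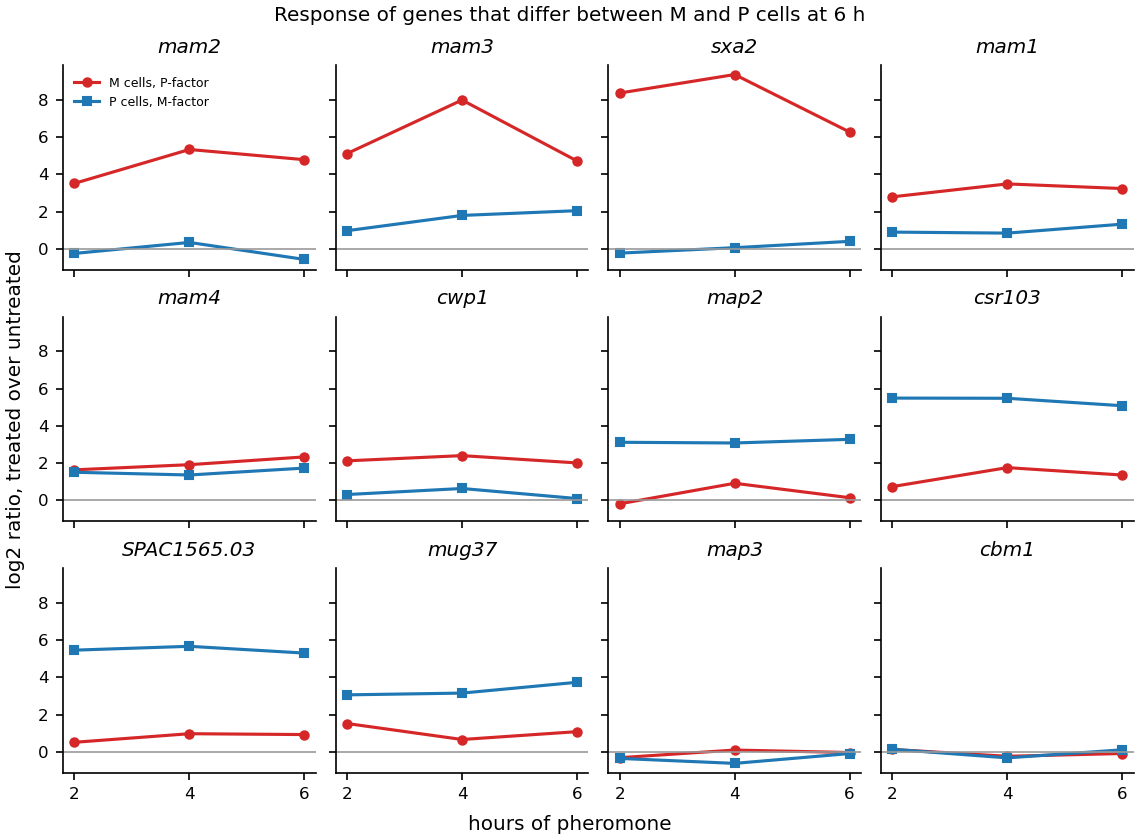
Log2 ratio of treated over untreated cells (y axis) at 2, 4 and 6 h of pheromone (x axis) for M cells with P-factor (red circles) and P cells with M-factor (blue squares), 1 array per point, for 12 genes past 2-fold between the cell types at 6 h. sxa2 reached 9.36 in M cells and stayed below 0.41 in P cells, while map3 and cbm1 stayed within 0.62 of 0 in both.

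The difference between the courses was tested with limma, as the mean of the 3 P-factor arrays minus the mean of the 3 M-factor arrays, with time points in place of replicates. Of 4093 genes with all 6 values, 105 (2.57 percent) responded more with P-factor in M cells and 85 (2.08 percent) more with M-factor in P cells at an adjusted p (limma, Benjamini-Hochberg) of 0.05. Of the 20 tested genes past 2-fold at 6 h, 11 were called. sxa2 differed by 7.92 ± 0.63 (SE of the fit, adjusted p = 0.00052 by limma), mam2 by 4.70 ± 0.43 (limma adjusted p = 0.0014) and mam1 by 2.15 ± 0.25 (limma adjusted p = 0.0042). In the other direction, SPAC1565.03 differed by -4.67 ± 0.22 (limma adjusted p = 1.2e-05), csr103 by -4.07 ± 0.28 (limma adjusted p = 0.00022) and map2 by -2.87 ± 0.29 (limma adjusted p = 0.0017). mam3, cwp1, SPAC11H11.03c and mug37 were called in the direction of their ratio at 6 h, and wwm2 in the opposite direction (-1.32 ± 0.25, limma adjusted p = 0.025). Not called were map3 (0.27 ± 0.22, limma adjusted p = 0.46), mam4 (0.43 ± 0.24, limma adjusted p = 0.27) and cbm1 (-0.04 ± 0.22, limma adjusted p = 0.92). The other 6 not called were git3 (-1.04 ± 0.44), ght1 (-0.70 ± 0.33), mok13 (-0.33 ± 0.25), adh4 (0.61 ± 0.30), vps5 (-0.20 ± 0.24) and SPBC25B2.08 (0.09 ± 0.31), with adjusted p from 0.17 to 0.88 by limma. Of these 6, all but vps5 had a difference opposite in sign to their ratio at 6 h, and isp4 lacked a value.

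The number of calls rested on single arrays. Without the P-factor array of 2, 4 or 6 h it was 17, 13 or 16 in place of 190, without the M-factor array of 4 h it was 47, and without that of 2 h it was 296. SPAC11H11.03c, SPAC1565.03, csr103, cwp1, mam1, mam2, map2, mug37 and sxa2 were called under every one of these fits and under the 3 other settings tried. The call of mam3 (adjusted p = 0.022 by limma) was lost without the M-factor array of 4 h (adjusted p = 0.056 by limma) or the P-factor array of 2 h (adjusted p = 0.060 by limma). The call of wwm2 was lost without the M-factor array of 4 h or any 1 of the P-factor arrays, with adjusted p from 0.062 to 0.13 by limma.

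The ratio at 6 h can also be composed from the untreated M over P ratio plus the P-factor response minus the M-factor response at 6 h, which uses 3 other hybridisations of RNA taken to be the same. Over 4597 genes the direct and the composed ratio differed by a median of 0.35 on the log2 scale. They correlated with r = 0.37 across genes, which are not independent. The SD was 0.20 for the direct and 0.63 for the composed ratios. Composed, 364 genes were past 2-fold, against 21 directly, and 16 of the 21 passed the same way by both routes. Of 33 genes past 4-fold when composed, 11 were past 2-fold directly the same way. Which route lies nearer to the true ratio was not tested. Among the 21 genes past 2-fold the composed ratio was the larger in size in 12. mam2 was at 3.05 directly and at 7.0 when composed, sxa2 at 2.20 and 6.10, mam1 at 2.09 and 4.06, map2 at -3.12 and -6.07, and SPAC1565.03 at -2.89 and -4.96. mam4 (1.67 and 1.53) and adh4 (-1.97 and -1.75) were close by both routes. map3 went the other way, with -3.53 directly and -1.17 when composed, as did wwm2 (1.60 and 0.38), mok13 (1.35 and 0.37) and cbm1 (1.79 and 0.63). The largest gap was that of hmg1, at 0.22 directly and -5.27 when composed. The direct ratios of all genes ended at 3.05 and -3.53, whereas the composed ones reached 7.0 and -6.07. All folds given above and the counts of genes past 2-fold at 6 h are those of the direct hybridisation.

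**Figure D5:**
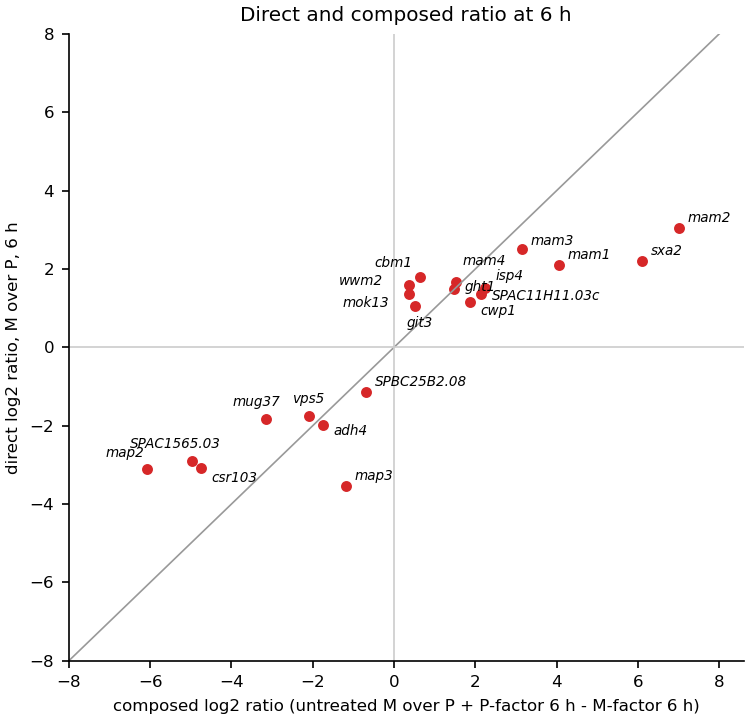
Log2 ratio of M over P cells at 6 h measured directly (y axis) and composed from 3 other arrays (x axis) for the 21 genes past 2-fold, with the line of equality. mam2, sxa2, mam1, map2 and SPAC1565.03 lie nearer to 0 directly than when composed, and map3 lies further from 0.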

How the data were processed

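RNA of M and P cells was hybridised by the authors to 2-colour arrays of PCR products. They read the spots with Imagene and applied lowess normalisation in GeneSpring. The deposited values are log ratios, always of the first channel over the second, M cells coming first where the strains were compared and treated cells first in the time courses. Treated cells carried Cy5 on the M-factor array of 2 h and Cy3 on the other 5 time-course arrays. The base is log2 in the deposited M-factor arrays of 2 and 4 h and the natural log in the deposited values of the other 6 arrays. These bases were inferred by setting the values against ratios listed in the study's supplement, and for the comparison of treated M with treated P cells only from its number format, which leaves its base likely but not settled. Natural logs were multiplied by 1.44 to give log2. Intensities were not used here, so each spot's signal over background was not known, and precision is limited by how many arrays there are.

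Only the 9522 of 11520 spots listed with a single gene symbol were named (134 were listed with several and 1864 with none), 9442 by gene number and 80 by synonym in a RefSeq gene table. Spots were averaged per gene (4741 genes of 2 spots, 10 of 4). Genes were counted past 2-fold without a test, since each comparison had 1 array; the array median was -0.01 at 6 h and -0.02 untreated and was not removed. The difference between the time courses was fitted in R 4.3.3 with limma 3.58.1 (lmFit, then eBayes) for genes complete on the 6 arrays, and Benjamini-Hochberg adjusted p-values were held to 0.05. Time points stood in for replicates of 1 culture per strain, so the p-values measure only the spread between these arrays. The calculation was tested on simulated data of 4093 genes. It recovered 55 of 100 differences of 2-fold and 91 of 100 of 4-fold, with 10 false calls. A gene that was not called may therefore still differ. The simulated errors were independent between arrays, whereas the real arrays of a strain share 1 culture and its 0 h reference. The simulated rates need not hold for the real fit. Tables and figures were made with Python 3.11.15, numpy 2.4.6, pandas 2.3.3 and matplotlib 3.10.9. Chromosome neighbours come from the same RefSeq table, and Ste11 sites from the study's supplementary list.

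The array, although defined by its label, and the gene lists were chosen with earlier results of these data known. Named are all M-cell and P-cell genes of the lists, the 15 largest ratios each way at 6 h, up to 3 members of each other list with the largest ratios, the 5 largest moves each way, genes past 2-fold with spots on opposite sides of 0 (there were none) and chromosome neighbours of M-cell and P-cell genes. Chosen after their values were seen were isp3, SPAC4H3.08, SPAPB1A11.03, SPAC977.05c, imt2, tac1, hmg1, leu1, ura6, his6, eme1, cdc22 and the named members of the shared pathway. Alternatives changed the log base, the centring, the threshold, the spots, the arrays and the fit and, added after the data were seen, left out genes at the modal value.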

Additional observations from a re-analysis of the deposited data

Results flagged for a closer look

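Some array positions without a single gene symbol carried a signal past 2-fold on both of their spots and were not part of the comparisons by gene. A position with no symbol had spots at 3.28 and 3.39 (mean 3.34) at 6 h and at 3.18 and 3.57 untreated, above the highest ratio of a named gene (3.05), with time-course values between -0.06 and 0.51. Another position with no symbol had spots at -3.28 and -3.06 (mean -3.17) at 6 h and at -1.07 and -1.58 untreated, with time-course values of 3.62, 4.30 and 4.48 in P cells with M-factor and of -0.55, -0.53 and -0.47 in M cells with P-factor. The position listed for both mat3-Mc and mat1-Mc had a mean of 3.75, and that listed for pim1 and ptr2 had a mean of 1.44 (untreated 2.05). The genes behind the positions with no symbol were not identified here.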

How the results depend on the processing

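Leaving out genes with discordant spots, using 1 spot or asking every spot to pass left the counts at 6 h between 13 and 15 for M cells and at 8 or 9 for P cells, and centring the array left them at 13 and 8. At 1.5-fold the counts were 33 and 16, and at 3-fold 7 genes remained on the M side, against 7 on the P side. Taken as 6 h minus untreated, the counts were 6 and 19. Of the genes induced with either pheromone 95.1% were less than 2-fold apart, with 93.4% to 96.3% under other settings (94.7% when genes at the modal value were left out), and 97.6% of those induced with both. The ratio moved 1.5-fold in 84 genes, and by 2-fold in 23 genes when those at the modal value were left out. The median difference of the direct and the composed ratio lay between 0.34 and 0.48. In the fit of the time courses, leaving out 1 array gave between 13 and 296 calls. No paired analysis was possible because each comparison of M with P cells is 1 array; with the time point as a replicate block, the fit of the time courses gave 273 calls in place of 190, 188 of them shared. For the 21 genes past 2-fold, neither the base, the centring nor the use of 1 spot turned the direction of the ratio, whereas genes near 0 with spots on opposite sides have no settled direction. Over all named genes and settings a call of the fit was lost 31 times and gained 9 times.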
